A study of Mus musculus with 12 samples.

Results

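The 9 genes described here encode proteins of families that hold back inflammatory signalling. They are the A20 complex and deubiquitinase genes Tnfaip3, Tnip1, Tnip3 and Cyld, and the mRNA decay genes Zc3h12a, Zc3h12c, Zfp36, Zfp36l1 and Zfp36l2. They were picked by symbol from the 55335 genes quantified in every library. RNA-seq was performed on bone marrow-derived dendritic cells (BMDCs) in 4 groups of 3 biological replicates: untreated WT cells, LPS-treated WT cells (WTL), untreated CTCF-deficient cells (KO) and LPS-treated CTCF-deficient cells (KOL). Bone marrow of C57BL/6 mice aged 8 to 12 weeks was cultured with GM-CSF for 6 days, and CD11c+ cells were taken. All mice carried CreER, expressed from the Rosa26 locus. WT marrow carried CreER alone, whereas KO marrow was CreER;CTCF fl/fl and received 4-OH tamoxifen on the first day of culture for the deletion. The sources do not make clear whether WT cultures received the drug as well; if they did not, drug and deletion cannot be told apart. LPS, a bacterial cell wall component that is sensed through TLR4, was given at 100 ng/ml for 3 h. The comparison of WTL with WT asks how LPS changes these genes, those of KO with WT and KOL with WTL ask what CTCF depletion changes before and after LPS, and the interaction asks whether the LPS response itself differs between genotypes.

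A20, the protein of Tnfaip3, edits ubiquitin chains on signalling proteins of the TLR and TNF receptor pathways and thereby limits NF-kappaB activation. The proteins of Tnip1 and Tnip3 (ABIN-1 and ABIN-3) are A20-binding proteins, and ABIN-1 also binds ubiquitin chains. CYLD is a separate deubiquitinase that removes chains from the same pathways. Regnase-1, the protein of Zc3h12a, is an RNase that cuts the mRNAs of cytokines at stem loops in their 3′ UTRs, and Zc3h12c encodes a relative of it, Regnase-3. Tristetraprolin, the protein of Zfp36, binds AU-rich elements in the 3′ UTRs of cytokine mRNAs and brings in the deadenylase complex CCR4-NOT, and Zfp36l1 and Zfp36l2 encode proteins with the same type of zinc fingers. Several of these genes are known to be induced by the signals that their products switch off.

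Libraries held 12769773 to 16586334 expected counts. WTL replicate 2 stood apart by its share of ribosomal RNA, which was 5.165% of its counts against 0.383% to 1.185% elsewhere. Ctcf, the deleted gene, lay at 975 to 1051 normalized counts in WT, 745 to 886 in WTL, 516 to 570 in KO and 526 to 563 in KOL. The KO and KOL libraries therefore kept a part of the Ctcf mRNA, and no library went against its label. Summed levels of 7 dendritic cell markers were 7622 to 8192 TPM in WT and 7674 to 10844 in WTL. They were 6239 to 6492 TPM in KO and 8595 to 13065 in KOL. Cd74 made up most of this sum in every group, and single markers moved in opposite directions. Flt3, H2-Ab1 and Ccr7 were lower and Itgax higher in KO than in WT. Flt3 and Csf2ra were lower and Itgax and Zbtb46 higher in KOL than in WTL. Summed levels of 6 macrophage markers were 694 to 858 TPM over all groups. Of these 6, Adgre1, Mertk, Fcgr1 and Cd14 were lower and Csf1r higher in KO than in WT, and Mertk, Fcgr1 and Mrc1 were lower in KOL than in WTL (log2 fold changes of -2.20 to -0.68). The sum of 7 neutrophil markers was 369 to 391 TPM in WT, 340 to 430 in WTL, 192 to 225 in KO and 287 to 331 in KOL. All 5 neutrophil markers that could be tested were lower in KO than in WT, where 22.4% of all genes were lower. In KOL against WTL, 4 of the 5 were lower, beside 23.3% of all genes. Ly6g, which defines the type, had at most 3 counts in every WT, WTL and KO library. It had 10, 17 and 10 counts in the KOL libraries. The part of these markers in the results was not tested. In bulk RNA, fewer cells of a type and less RNA per cell cannot be told apart.

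The 9 genes lie on 9 different chromosomes of mm10 (GENCODE M21), each as a protein-coding gene. Tnfaip3 is at chr10:19000910-19015657, Tnip1 at chr11:54910785-54962917, Tnip3 at chr6:65525313-65634040 and Cyld at chr8:88697028-88751945. Zc3h12a is at chr4:125118423-125127840, Zc3h12c at chr9:52111344-52168572, Zfp36 at chr7:28376784-28380253, Zfp36l1 at chr12:80107754-80113013 and Zfp36l2 at chr17:84183931-84187947. Tnip3 and Cyld are on the plus strand and the others on the minus strand. Tnip1, Cyld, Zc3h12c, Zfp36, Zfp36l1 and Zfp36l2 share ground with short genes of the other strand, and the sources do not say whether reads were counted by strand. Where the overlapping gene was itself quantified, its counts reached at most 0.484% of those of the member. No counts were found under the names of the genes that overlap Zfp36l1 and Zfp36l2 (Gm26669 and AC132455.1), so these members were not checked.

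The promoter sequences of 8 members were at hand (RefSeq, GRCm38.p6, 250 bases before to 50 after the start; 10 entries in all, Zfp36l2 without one). They were searched on both strands for the 10-letter kappaB motif, the consensus site of NF-kappaB, whose matches may overlap. For 5 members (Tnfaip3, Tnip1, Tnip3, Cyld and Zc3h12c), at least 1 entry held a match. The second entries of Tnfaip3 and Zc3h12c held none. Counted by entry and not by gene, 8.46% of 32851 promoters overall and 10.4% of the 12865 promoters of tested genes held a match. The promoters of Zc3h12a, Zfp36 and Zfp36l1 held none in this window. The 250 bases before the start are shown for the 3 genes of the A20 complex, with kappaB matches in capitals. For Tnfaip3 the entry with matches is shown. Zc3h12a, whose window lacks the motif, is shown as well.
Tnfaip3, chr10:19015411-19015660, minus strand: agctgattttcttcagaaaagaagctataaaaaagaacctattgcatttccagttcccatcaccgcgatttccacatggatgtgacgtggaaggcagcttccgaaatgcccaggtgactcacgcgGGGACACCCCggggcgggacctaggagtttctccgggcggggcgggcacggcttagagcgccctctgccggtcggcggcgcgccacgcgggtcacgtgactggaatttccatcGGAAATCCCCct
Tnip1, chr11:54962941-54963190, minus strand: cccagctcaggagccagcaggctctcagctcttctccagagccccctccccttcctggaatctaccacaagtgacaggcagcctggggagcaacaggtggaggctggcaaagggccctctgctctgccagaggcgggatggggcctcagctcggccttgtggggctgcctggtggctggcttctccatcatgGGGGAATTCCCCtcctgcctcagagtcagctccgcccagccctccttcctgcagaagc
Tnip3, chr6:65590148-65590397, plus strand: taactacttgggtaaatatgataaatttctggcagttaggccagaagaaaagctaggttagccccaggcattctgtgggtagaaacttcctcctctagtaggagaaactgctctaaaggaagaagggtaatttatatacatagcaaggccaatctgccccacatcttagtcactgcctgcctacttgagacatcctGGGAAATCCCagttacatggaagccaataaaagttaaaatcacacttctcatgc
Zc3h12a, chr4:125127882-125128131, minus strand: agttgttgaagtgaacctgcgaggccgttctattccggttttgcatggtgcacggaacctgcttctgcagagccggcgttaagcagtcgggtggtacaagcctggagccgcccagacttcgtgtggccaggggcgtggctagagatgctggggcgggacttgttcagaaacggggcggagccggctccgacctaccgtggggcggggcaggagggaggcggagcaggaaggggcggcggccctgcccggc
In Tnfaip3 the matches began 125 and 12 bases before the start, and in Tnip1 3 overlapping matches spelled a single palindrome that began 58 bases before it. In Tnip3 the match began 54 bases before the start of the RefSeq entry. That start lies inside the span given above for the gene and not at its end. The same holds for the entries of Tnfaip3, Zc3h12c and Zfp36. For Zfp36, the 250 bases searched before the start were chr7:28379229-28379478, whereas the span of the gene ends at 28380253. The pattern TGANTCA, a looser form of the AP-1 motif that allows any middle base, occurred in Tnfaip3 and Zfp36l1. It occurred in 7.81% of all promoters and 5.4% of those of tested genes. The match read TGACTCA in Tnfaip3 and TGATTCA in Zfp36l1. The STAT motif TTCNNNGAA occurred in Tnip1 and Zfp36 (8.3% of all promoters and 6.93% of those of tested genes). A match describes the letters and not a bound site.

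The 3′ UTRs bear on the decay genes in another way, since the ZFP36 proteins bind UAUUUAU, written here as TATTTAT. In the GENCODE transcript with the longest coding sequence, 6 of the 9 members (66.7%) held this motif in the 3′ UTR, against 3279 of 11999 tested genes (27.3%). The median 3′ UTR was 1821 bases long in the members and 953 in the tested genes. Zfp36, Zfp36l1 and Zfp36l2 held 3 copies each, Tnfaip3, Cyld and Zc3h12c 2 each, and Tnip1, Tnip3 and Zc3h12a none. A 30-base stretch of the last exon is shown for the 3 family members, as mRNAs of binding proteins that carry their own motif, and for Tnf, the best known target, with the motif in capitals.
Zfp36, exon 2, chr7:28376962-28376991, minus strand: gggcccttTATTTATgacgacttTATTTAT
Zfp36l1, exon 2, chr12:80108418-80108447, minus strand: tcaaaacgTATTTATtgccaaactatgctt
Zfp36l2, exon 2, chr17:84184910-84184939, minus strand: atttaactTATTTATtatcttgtgaaaagt
Tnf, exon 4, chr17:35199678-35199707, minus strand: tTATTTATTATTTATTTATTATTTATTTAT
The stretch of Tnf held 5 copies of the motif, some of which overlap, and that of Zfp36 held 2.

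All 9 members passed the filter on low counts and were tested among 14008 genes. Normalized counts (counts corrected for library size with TMM factors) are used for comparing a gene between libraries, and TPM, which accounts for length, for comparing genes with each other. A gene was called where the Benjamini-Hochberg adjusted p of edgeR's quasi-likelihood test was under 0.05.

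By TPM, the ranking of the 9 genes was redrawn by LPS. In WT cells, Tnip3 had the highest mean level at 167 TPM ± 10.4 (SD, n = 3), followed by Zfp36 at 125 ± 2.47 TPM and Tnfaip3 at 103 ± 1.34 TPM. Zfp36l2 (97.4 ± 12.4 TPM) and Tnip1 (91.5 ± 4.64 TPM) lay within the spread of their neighbours, Zfp36l1 followed at 73.7 ± 4.19 TPM, and Zc3h12a, Cyld and Zc3h12c lay at 30.4, 23.0 and 18.6 TPM. In WTL cells, Tnfaip3 came first at 352 ± 29.6 TPM, a level above that of 97.1% of tested genes, and Tnip3, Tnip1 and Zfp36 followed at 193 ± 43.2, 172 ± 4.27 and 154 ± 29.4 TPM, each within the spread of the next. Zc3h12a was at 119 ± 17.6 TPM, and Zfp36l2 and Zfp36l1 were last at 17.5 ± 1.13 and 15.4 ± 2.31 TPM, close to Cyld at 18.8 ± 2.41 TPM. Tnip3 was also highest in KO cells at 134 ± 1.90 TPM, where Tnfaip3 (65.6 ± 4.37 TPM) overlapped in its range of mean ± SD with Zfp36l2 (70.3 ± 2.42 TPM) and with Zfp36 (63.4 ± 4.28 TPM). Tnfaip3 was highest in KOL cells at 251 ± 33.7 TPM, where Zfp36 (122 ± 19.4 TPM) and Tnip1 (102 ± 14.8 TPM) overlapped likewise.

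**Figure D1:**
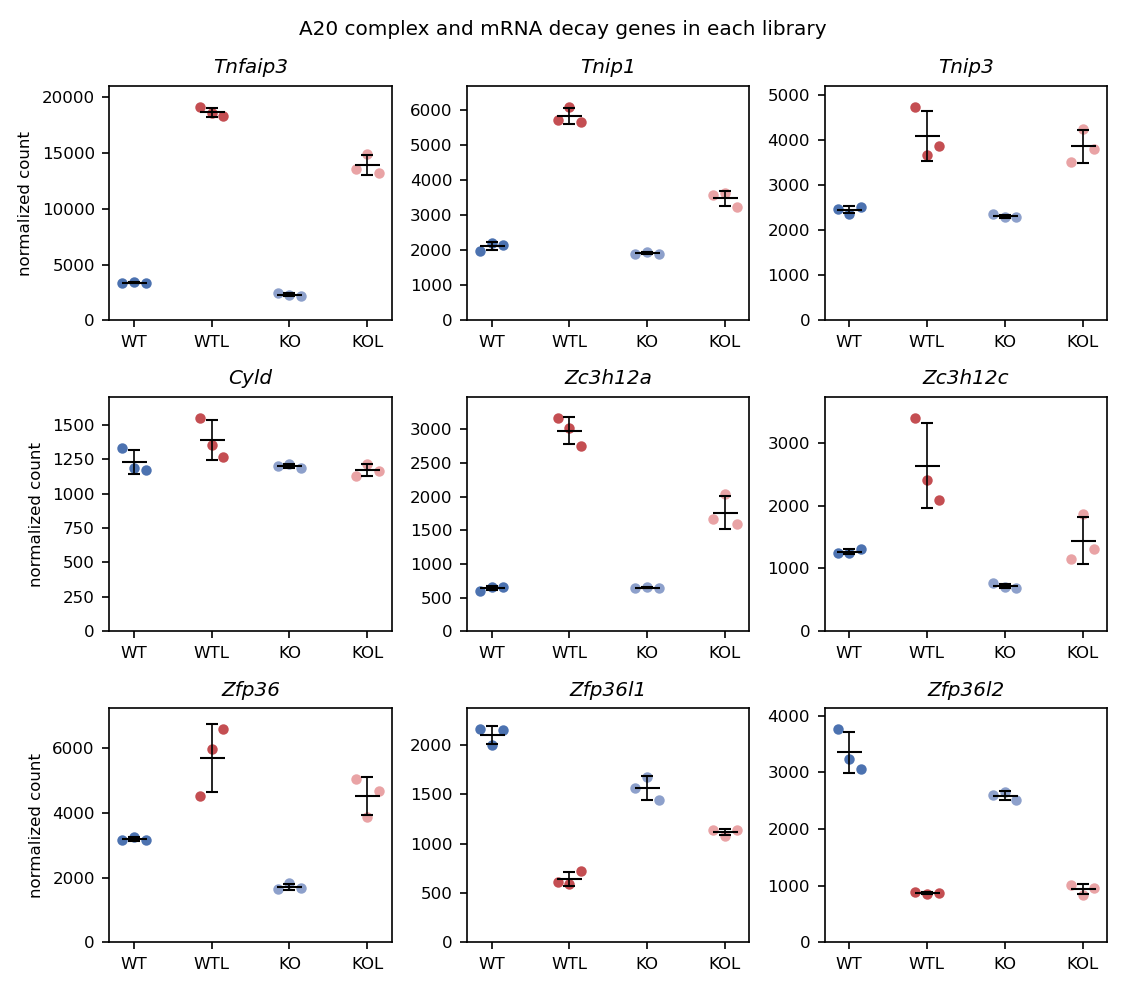
Normalized count of each of the 9 genes (vertical axis, from 0) in the 4 groups (horizontal axis). Points are libraries, and bars are the mean and SD of 3 replicates; Tnfaip3 lies between 2229 and 3413 without LPS and between 13228 and 19110 with it, and Zfp36l1 and Zfp36l2 are lower with LPS in both genotypes.

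LPS raised the A20 complex genes in WT cells. Normalized counts of Tnfaip3 were 3345, 3413 and 3368 in WT and 19110, 18560 and 18307 in WTL. No WTL library came near the WT range, and the log2 fold change was 2.47 ± 0.07 (SE, edgeR's quasi-likelihood test, adjusted p = 1e-12). Tnip1 was at 1992, 2198 and 2162 in WT and 5725, 6087 and 5671 in WTL, a log2 fold change of 1.46 ± 0.07 (edgeR, adjusted p = 2.1e-10). Tnip3 was at 2485, 2374 and 2516 in WT and 4732, 3668 and 3880 in WTL, so that the groups stood apart by a smaller margin (log2 fold change 0.74 ± 0.09, edgeR, adjusted p = 9.8e-06). Cyld, the gene of the separate deubiquitinase, lay at 1327, 1182 and 1171 in WT and 1546, 1350 and 1268 in WTL. The 2 groups overlapped, and the log2 fold change of 0.18 (95% interval 0.00 to 0.35) did not pass the test (edgeR, adjusted p = 0.072) and turned to -0.27 on the TPM scale (limma, adjusted p = 0.03).

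Both RNase genes rose with LPS in WT cells. Zc3h12a was at 603, 660 and 657 normalized counts in WT and 3161, 3020 and 2755 in WTL, a log2 fold change of 2.22 ± 0.10 (edgeR, adjusted p = 7.7e-11). Zc3h12c was at 1252, 1239 and 1315 in WT and 3385, 2413 and 2088 in WTL (log2 fold change 1.05 ± 0.17, edgeR, adjusted p = 0.00011). The WTL libraries of Zc3h12c were spread widely, with a coefficient of variation of 25.7% against 3.21% in WT, yet each was above every WT library.

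The ZFP36 family split. Zfp36 rose from 3157, 3263 and 3181 normalized counts in WT to 4529, 5986 and 6592 in WTL, a log2 fold change of 0.83 ± 0.12 (edgeR, adjusted p = 3.6e-05). Zfp36l1 fell from 2160, 2001 and 2149 to 610, 588 and 724 (log2 fold change -1.71 ± 0.09, edgeR, adjusted p = 5.3e-10), and Zfp36l2 fell from 3762, 3240 and 3068 to 882, 853 and 876 (-1.95 ± 0.09, adjusted p = 1.6e-10). No library of either paralogue overlapped between the groups. Only 2.00% of tested genes had a lower log2 fold change than Zfp36l2, and 2.91% a lower one than Zfp36l1.

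Of the 9 members, 6 were therefore upregulated by LPS in WT cells, 2 downregulated and 1 not called. Among all genes tested, 30.0% were called higher and 30.2% lower in this comparison, so that most genes of the table moved. The 4 members that rose by more than 2-fold (Tnfaip3, Tnip1, Zc3h12a and Zc3h12c) and the 2 that fell by more than that (Zfp36l1 and Zfp36l2) compare with 12.6% and 9.99% of tested genes. The median log2 fold change was 0.83 over the members and -0.02 over all tested genes. On the TPM scale, where the median of all genes shifted by -0.44 (log2), the calls of Tnip3 (0.19, limma, adjusted p = 0.22) and Zfp36 (0.28, limma, adjusted p = 0.098) were lost. Both calls were kept once TPM had been scaled to a common median.

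CTCF depletion lowered 5 of the 9 members in unstimulated cells and raised none. Across all genes tested, 22.4% were called lower and 22.2% higher in KO than in WT. Zfp36 was at 1645, 1834 and 1694 normalized counts in KO, near 53.9% of its WT level and below every WT library (log2 fold change -0.89 ± 0.12, edgeR's quasi-likelihood test, adjusted p = 3.6e-05). Zc3h12c was at 765, 710 and 691 in KO, 56.9% of its WT level (-0.81 ± 0.18, edgeR, adjusted p = 0.0017). Tnfaip3 was at 2459, 2278 and 2229 in KO, 68.8% of its WT level (-0.54 ± 0.07, edgeR, adjusted p = 1.4e-05). Of the members that fell, Zfp36l1 and Zfp36l2 did so least. Their normalized counts were 1567, 1681 and 1445 and 2602, 2662 and 2516 in KO, with log2 fold changes of -0.43 (edgeR, adjusted p = 0.00085) and -0.37 (edgeR, adjusted p = 0.0026). The first 4 of these genes also passed the 1.3-fold cutoff, which 17.2% of tested genes passed downward, and Zfp36l2 did not. No member passed it upward, as 17.3% of tested genes did.

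The other members were close to their WT level without LPS. Zc3h12a was at 642, 658 and 643 normalized counts in KO, within the WT range (log2 fold change 0.02, 95% interval -0.19 to 0.22, edgeR, adjusted p = 0.91). Cyld was at 1197, 1216 and 1189 in KO, also within that range (-0.03, interval -0.20 to 0.14, adjusted p = 0.79). Tnip1 was at 1899, 1948 and 1905 in KO and Tnip3 at 2353, 2295 and 2302, each below all WT libraries by a small margin. Their log2 fold changes of -0.14 (interval -0.29 to 0.00, edgeR, adjusted p = 0.11) and -0.09 (interval -0.29 to 0.11, adjusted p = 0.49) did not pass the test. For Tnip1, leaving out WT replicate 1 gave -0.22 (edgeR, adjusted p = 0.032), DESeq2 gave -0.16 (adjusted p = 0.04), and edgeR on the WT and KO libraries alone gave -0.14 (adjusted p = 0.0068).

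**Figure D2:**
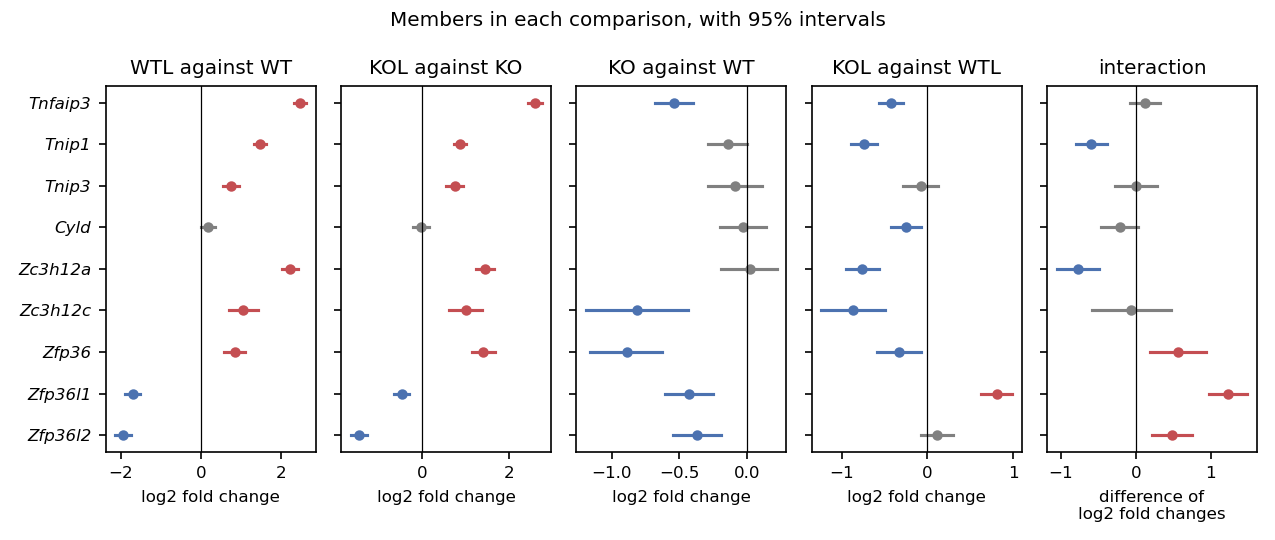
Log2 fold change of each member (horizontal axis) in the 4 comparisons and, in the last panel, the LPS response in CTCF-deficient cells minus that in WT cells. Points are edgeR estimates, lines are 95% intervals, and red, blue and grey mark genes called higher, lower and not called; horizontal scales differ between panels, and Tnip1 and Zc3h12a include 0 in KO against WT and lie below it in KOL against WTL.

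After LPS, CTCF depletion lowered 6 members and raised 1. Among all genes tested, 23.3% were called lower and 21.4% higher in KOL than in WTL. Tnip1 was at 3569, 3653 and 3247 normalized counts in KOL, 59.9% of the WTL level (log2 fold change -0.74 ± 0.07, edgeR's quasi-likelihood test, adjusted p = 7.2e-07). Zc3h12a was at 1665, 2035 and 1586, 59.1% of the WTL level (-0.76 ± 0.09, edgeR, adjusted p = 1e-05). Both were below every WTL library, whereas neither had passed the test without LPS. Zc3h12c was at 1145, 1859 and 1311 (54.7% of WTL, log2 fold change -0.87 ± 0.17, edgeR, adjusted p = 0.00089). These 3 genes were the only members past the 1.5-fold cutoff downward, which 12.5% of tested genes passed.

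Tnfaip3 was at 13613, 14967 and 13228 normalized counts in KOL, 74.7% of its WTL level and below every WTL library (log2 fold change -0.42 ± 0.07, edgeR, adjusted p = 0.00013). Zfp36 was at 5050, 3882 and 4672, and the groups overlapped, since WTL replicate 1 held only 4529 (-0.33 ± 0.12, edgeR, adjusted p = 0.038). Cyld was at 1129, 1213 and 1167 (-0.25 ± 0.08, edgeR, adjusted p = 0.024). The calls of both Zfp36 and Cyld were lost with edgeR on the 6 libraries compared (adjusted p = 0.17 and 0.14), with effective length offsets (0.077 and 0.081) and with limma on log2(TPM + 1) (0.089 and 0.1), and Cyld also without the filter (0.065). For Zfp36 the call was also lost without WTL replicate 2 or 3 or KOL replicate 2 or 3 (log2 fold change -0.35 to -0.21) and with the replicate number as a block (-0.32, edgeR, adjusted p = 0.059). For Cyld it was also lost without WTL replicate 1 (-0.16) or KOL replicate 1 or 3 (-0.22 and -0.24).

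Tnip3 was at 3520, 4257 and 3809 normalized counts in KOL, which overlapped the WTL libraries (log2 fold change -0.08, 95% interval -0.28 to 0.12, edgeR, adjusted p = 0.5). Zfp36l2 was at 1012, 840 and 964, again with overlap (0.11, interval -0.08 to 0.30, adjusted p = 0.34). Zfp36l1 was the only member called higher. It was at 1140, 1083 and 1137 in KOL, above every WTL library and at 175% of the WTL mean (0.81 ± 0.09, edgeR, adjusted p = 4.2e-06), while without LPS the same gene had been lower in KO than in WT.

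LPS moved the members of CTCF-deficient cells in the same directions as called in WT cells. In KOL against KO, 6 members were called higher and 2 lower, against 33.6% and 33.9% of all genes tested. The log2 fold changes were 2.59 for Tnfaip3, 1.44 for Zc3h12a, 1.40 for Zfp36, 0.99 for Zc3h12c, 0.86 for Tnip1 and 0.74 for Tnip3, with adjusted p of at most 0.00018 (edgeR). Those of Zfp36l1 and Zfp36l2 were -0.48 and -1.47, and that of Cyld was -0.04 (edgeR, adjusted p = 0.7). Of the 6 that rose, Tnip1, Tnip3 and Zc3h12c stayed under the 2-fold cutoff, which 15.1% of tested genes passed upward and 13.0% downward. On the TPM scale the call of Tnip3 was lost here as well (0.25, limma, adjusted p = 0.12).

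Whether the LPS response differed between genotypes was read from the interaction, the log2 fold change in CTCF-deficient cells minus that in WT cells. It was called for 5 of the 9 members, 3 higher and 2 lower, and for 8.70% and 8.75% of all genes tested. The response was smaller in CTCF-deficient cells for Zc3h12a, which rose 4.66-fold in WT and 2.72-fold in CTCF-deficient cells (interaction -0.77 ± 0.13, edgeR, adjusted p = 0.0011). It was also smaller for Tnip1, which rose 2.75-fold and 1.82-fold (-0.60 ± 0.10, edgeR, adjusted p = 0.00078). In normalized counts, the mean gain of Tnip1 was 3710 in WT and 1572 in CTCF-deficient cells, and that of Zc3h12a was 2339 and 1114. On this scale the gain was also smaller for Zc3h12c (1360 and 717), Tnfaip3 (15284 and 11614) and Tnip3 (1635 and 1545). It was larger for Zfp36 (2502 and 2810). The interaction compares fold changes and not gains in counts.

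Within the ZFP36 family the interaction was positive throughout, on a rise for Zfp36 and on a fall for its paralogues. Zfp36l1 fell to 0.305 of its untreated mean in WT cells and to 0.716 of it in CTCF-deficient cells, with the highest interaction of the members (1.23 ± 0.12, edgeR, adjusted p = 1.5e-05), above that of 96.4% of tested genes. Zfp36l2 fell to 0.259 and 0.362 (0.48 ± 0.12, edgeR, adjusted p = 0.015). Zfp36 rose 1.78-fold in WT and 2.63-fold in CTCF-deficient cells, from a lower start (0.56 ± 0.17, edgeR, adjusted p = 0.037). The call of Zfp36 was lost without WT replicate 2, WTL replicate 2, KOL replicate 1 or 3 or any KO replicate (range over all 12 libraries, 0.42 to 0.68) and with the replicate block (0.57, edgeR, adjusted p = 0.054).

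Tnfaip3 showed no such difference past the test. Its level was lower in CTCF-deficient cells both before and after LPS, and it rose 5.53-fold in WT and 6.00-fold in CTCF-deficient cells (interaction 0.12, 95% interval -0.08 to 0.32, edgeR, adjusted p = 0.43). Zc3h12c rose 2.07-fold and 1.99-fold (-0.06, interval -0.58 to 0.47, adjusted p = 0.91), and Tnip3 rose 1.67-fold in both genotypes (0.00, interval -0.28 to 0.28, adjusted p = 1). For Cyld the interaction was -0.21 (interval -0.46 to 0.03, adjusted p = 0.23). These intervals leave room for differences of the sizes they span.

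The make-up of the ZFP36 family shifted with LPS. By TPM, Zfp36 made up 42.4% ± 1.87 (SD, n = 3) of the summed level of the 3 genes in WT, 82.1% ± 2.68 in WTL, 34.4% ± 0.961 in KO and 72.8% ± 1.71 in KOL. Zfp36l1 made up 24.9%, 8.32%, 27.5% and 16.0% of it in the same order, and Zfp36l2 32.8%, 9.54%, 38.1% and 11.2%. By library, the share of Zfp36 was 40.3%, 43.9% and 42.9% in WT and 33.3%, 34.8% and 35.1% in KO, while WTL libraries had 79.1%, 83.8% and 83.6% and KOL libraries 74.3%, 71.0% and 73.2%. Zfp36 was therefore the main transcript of the family after LPS in every library, with a lower share in each KOL than in each WTL library. With 3 libraries against 3, an exact permutation test cannot go below p = 0.10, so these shares are given as a description. The summed normalized count of the 3 genes was 8398 to 9078 in WT, 6020 to 8192 in WTL, 5655 to 6177 in KO and 5806 to 7202 in KOL. WT libraries were above all others, and KO and KOL overlapped, with means of 5882 and 6593. On the TPM scale, which does not keep the libraries level, the KOL mean was below the KO mean (167 ± 22.8 and 184 ± 10.3 TPM). As a share of normalized counts, without the correction for length, Zfp36 made up 37.0% in WT, 78.8% in WTL, 29.3% in KO and 68.7% in KOL.

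**Figure D3:**
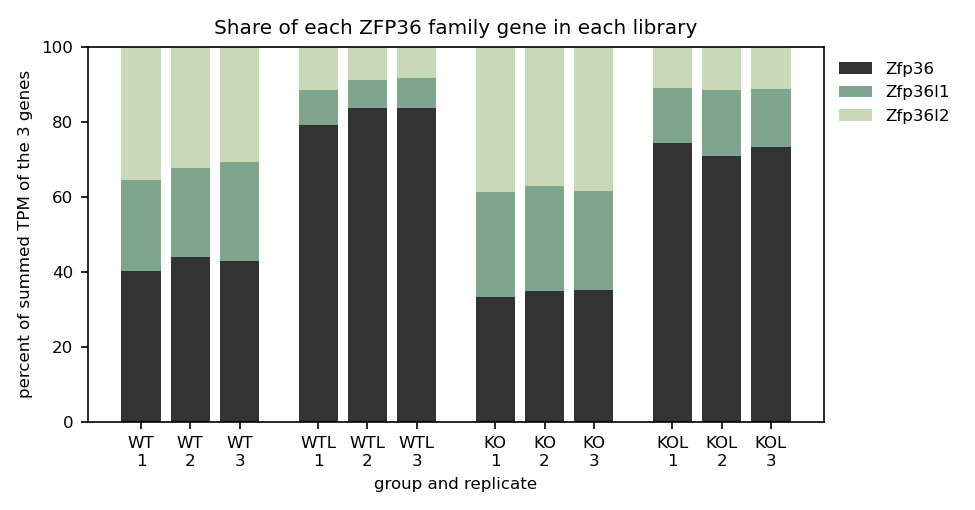
Percent of the summed TPM of Zfp36, Zfp36l1 and Zfp36l2 (vertical axis, from 0 to 100) that each gene took in each library (horizontal axis, group and replicate number). Zfp36 takes 33.3% to 43.9% without LPS and 71.0% to 83.8% with it.

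The paired genes of the other families shifted too. Zc3h12a made up 62.1% ± 1.67 of the summed TPM of Zc3h12a and Zc3h12c in WT, 81.8% ± 1.77 in WTL, 73.2% ± 0.915 in KO and 80.7% ± 1.72 in KOL. Their summed normalized count was 1855 to 1972 in WT, 4843 to 6546 in WTL, 1334 to 1407 in KO and 2810 to 3894 in KOL, with no overlap between groups. Tnip1 made up 35.5% ± 2.60 of the summed TPM of Tnip1 and Tnip3 in WT, 47.5% ± 5.51 in WTL, 37.3% ± 0.382 in KO and 38.8% ± 1.68 in KOL. The share of Tnip1 thus stood higher in each WTL library (41.3%, 51.8% and 49.5%) than in any KOL library (40.2%, 39.1% and 36.9%).

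Genes around A20 were taken as a list of 16, among them its partners Tnip2, Tax1bp1, Itch and Rnf11, the linear ubiquitin ligase subunits Rnf31, Rbck1 and Sharpin, and the A20 targets Ripk1, Ripk2, Ikbkg and Traf6. With LPS, 11 rose and 1 fell in WT cells (30.0% and 30.2% of all genes tested), and 10 rose and 1 fell in CTCF-deficient cells (33.6% and 33.9%). Ripk2, the kinase downstream of NOD receptors, rose most (log2 fold change 2.87 in WT and 3.22 in CTCF-deficient cells), followed by Rnf31, the catalytic subunit of the linear ubiquitin ligase (1.66 and 1.81), and the ubiquitin ligase gene Itch fell (-0.47 and -0.77). With CTCF depletion, 4 rose and 6 fell before LPS (22.2% and 22.4% of all genes), and 4 rose and 6 fell after it (21.4% and 23.3%). Tnip2, which encodes ABIN-2, was higher in KO (0.51) and KOL (0.33), as was the deubiquitinase gene Otud7b (0.58 and 0.42). Traf6, the ubiquitin ligase of the TLR pathway, was lower in both (-0.50 and -0.51), Ripk2 was lower in KO (-0.70), and Birc3, encoding cIAP2, was lower in KOL (-0.59). Of the 16 genes, 2 had an interaction past the test, Birc2 (0.38) and Birc3 (-0.39), against 8.70% of all genes in the one direction and 8.75% in the other.

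Regulators of the decay factors and their relatives were a list of 11, of which 9 were tested. With LPS, 6 rose and 1 fell in WT, beside 30.0% and 30.2% of all genes, and 6 rose and 2 fell in CTCF-deficient cells, beside 33.6% and 33.9%. Malt1, the protease that cleaves Regnase-1, rose most in both (2.27 and 2.38), and Arid5a, whose product guards Il6 mRNA from Regnase-1, rose in WT (1.87). CTCF depletion lowered Malt1 (-0.47) and raised Arid5a (0.36) without LPS, and lowered 4 of the 9 with LPS, when 23.3% of all genes were lower. The largest of these falls was that of Mapk14, encoding the p38 kinase upstream of the kinase that phosphorylates tristetraprolin (-0.83). Mapk14 was at 1750, 1742 and 1834 normalized counts in WT, 1908, 1679 and 1522 in WTL, 2064, 2078 and 2080 in KO and 870, 1107 and 905 in KOL. The KOL libraries lay below all others, and the interaction was -1.05 ± 0.14 (edgeR, adjusted p = 0.00013). Arid5a had an interaction of -0.66.

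The 22 genes of the deadenylation and decapping machinery, which the ZFP36 proteins engage, were mixed. LPS raised 7 and lowered 6 in WT cells, and raised 10 and lowered 4 in CTCF-deficient cells, beside all-gene shares of 30.0% and 30.2% and of 33.6% and 33.9%. The decapping enzyme gene Dcp2 rose most in both (1.97 and 1.71), and the 5′ exonuclease gene Xrn1 rose in WT (1.56). CTCF depletion raised 5 and lowered 2 both before LPS (22.2% and 22.4% of all genes) and after it (21.4% and 23.3%). Cnot11, a subunit of CCR4-NOT, was at 253, 248 and 241 normalized counts in WT and 514, 529 and 461 in KO (1.02 ± 0.09, edgeR, adjusted p = 3.2e-07), and was higher after LPS as well (0.90). Tob1, whose product links CCR4-NOT to target mRNAs, was at 435, 375 and 412 in WT and 160, 167 and 172 in KO (-1.29 ± 0.12, edgeR, adjusted p = 1e-06). With LPS it was at 438, 470 and 541 in WTL and 505, 378 and 525 in KOL, which overlapped (interaction 1.25 ± 0.17, edgeR, adjusted p = 0.00019). The deadenylase gene Cnot7 was higher in KOL than in WTL (0.78). Of 5 other AU-rich element binding proteins, 2 rose and 2 fell with LPS in each genotype. Elavl1, which encodes the stabilizing protein HuR, rose (0.70 and 1.08), and Tia1 fell (-0.97 and -0.91). Tia1 was also higher in KO (0.39) and KOL (0.46), and Khsrp lower (-0.23 and -0.24).

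The 15 target mRNAs of the decay factors were of interest because their levels can be set beside those of the factors. All 15 rose with LPS in both genotypes, where 30.0% and 33.6% of all genes rose, led by Il6 (7.97 and 9.53) and Il12b (6.40 and 7.51). With CTCF depletion and no LPS, 11 were lower, 1 higher and 3 not called, and 22.4% of all genes were lower. Csf2 and Il10, both among the 11, had at most 3 counts in every KO library, so their size of fall is not given. Median log2 fold change over the 15 was -1.55 with these genes at the limit that 3 counts set, beside -0.01 over all genes. Among those with at least 100 normalized counts on average, Cxcl2 (-2.61) and Ptgs2 (-2.46) fell most, and Il1b rose (1.29). Of the targets under that level, Il23a fell by 3.19 and Il6 by 2.54 on the log2 scale. Cxcl2 was at 4818, 4491 and 4106 normalized counts in WT and 737, 717 and 748 in KO, whereas Il1b was at 1587, 1588 and 1574 in WT and 3983, 3912 and 3741 in KO. Neither gene overlapped between the groups.

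With LPS, 7 of the 15 targets were lower in KOL than in WTL, 2 higher and 6 not called, with a median of -0.50 beside -0.03 over all genes, of which 23.3% were lower. Nfkbiz was at 8347, 8034 and 8381 in WTL and 3620, 3409 and 3439 in KOL (-1.24 ± 0.07, edgeR, adjusted p = 4e-09). Il10 (-1.22), Tnf (-1.10), Ptgs2 (-1.13), Il12b (-1.07), Il6 (-0.97) and Cxcl2 (-0.53) were the others that fell, and Cxcl1 (0.66) and Ccl3 (0.40) rose. The interaction was called positive for 11 of the 15 and negative for Il1b (-1.47), beside 8.70% and 8.75% of all genes. Csf2, with its KO libraries at 3 counts or fewer, was among the 11. Of the targets with at least 100 normalized counts on average, Il23a (3.06) and Cxcl1 (2.96) had the highest interaction. Both had a lower level in KO than in WT. Il23a was at 12.5 to 16.7 normalized counts in KO and 111 to 154 in WT, and Cxcl1 at 108 to 114 and 499 to 625. RNA levels do not separate transcription from decay, and neither was measured here.

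**Figure D4:**
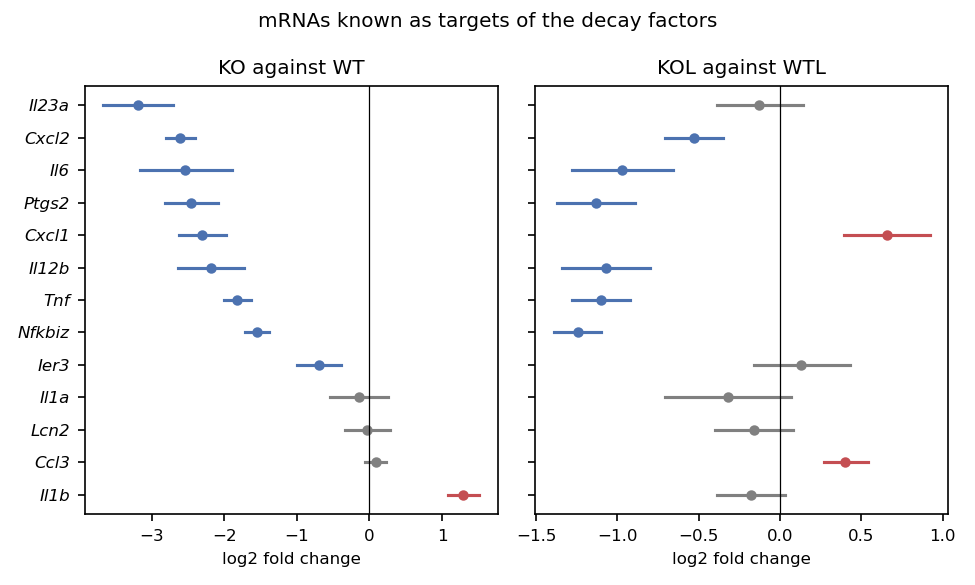
Log2 fold change (horizontal axis) of 13 of the 15 mRNAs known as targets of the decay factors, with CTCF depletion before (left) and after LPS (right). Points are edgeR estimates, lines 95% intervals, and red, blue and grey mark genes called higher, lower and not called; Csf2 and Il10, at 3 counts or fewer in KO, are left out, scales differ between panels, and Cxcl1 is at -2.31 on the left and 0.66 on the right.

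Likeness to other genes was described by Pearson's r of log2 normalized counts over the 12 libraries among 9338 genes with a mean of at least 100. The libraries share 4 groups, so r mostly follows the 4 group means. The closest genes were Gbp5, Daxx and Cd40 for Tnfaip3 (r of at least 0.999), Cdc42ep4, Icam1 and Slc7a8 for Tnip1 (at least 0.993) and Nod1, Marf1 and Ms4a6c for Zc3h12a (at least 0.995). For Tnip3 they were Acpp, Samd9l and Ankib1 (at least 0.990), and for Zc3h12c Arhgef3, Gm6377 and Il1rap (at least 0.989). For Zfp36 they were Grasp, Nfkbid and G530011O06Rik (at least 0.989), for Zfp36l1 Rnf217, Rassf5 and Gpcpd1 (at least 0.981), and for Zfp36l2 Zbtb1, Fads1 and Sdccag8 (at least 0.990). Those of Cyld, Ppig, Atf2 and Gm20707, were less close (at least 0.917). Among the members themselves, Tnip1 and Zc3h12a were closest to each other (r = 0.985), followed by Tnfaip3 and Zc3h12a (r = 0.971) and Tnfaip3 and Tnip3 (r = 0.967). Zfp36l1 and Zfp36l2 ran together (r = 0.898) and opposite to Zfp36 (r = -0.661 and -0.748), and Cyld followed none of the A20 genes closely (r = 0.386 to 0.545). Many other genes were as close. By rank of r among all genes compared, Zc3h12a stood at 23 for Tnip1 but at 523 for Tnfaip3, for which Tnip3 stood at 572. Zfp36l2 stood at 117 for Zfp36l1, and Zfp36l1 at 683 for Zfp36l2.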

How the data were processed

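RNA-seq of 12 BMDC cultures was examined. Reads were trimmed by the authors (Trim Galore), mapped to mm10 by STAR (2.5.1 in the submitters' processing notes) and quantified per gene by RSEM. They deposited RSEM expected counts, which are estimated counts that need not be whole, and TPM, which the authors' tool brings to 1 sum per library, so that depth is lost. Effective lengths, also deposited, are transcript lengths corrected for fragment size. Ribosomal RNA was depleted according to the labels, whereas the methods name a stranded poly(A) kit; whether RSEM was told the strand is not given in the sources used here. Reads of near-identical copies are shared out by RSEM, and total expected counts were 12769773 to 16586334 per library, with counting error only part of the spread.

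Libraries were grouped by their titles. Expected counts were rounded, filtered with filterByExpr, normalized with TMM and tested in 1 fit of all 12 libraries without covariates by the quasi-likelihood test of edgeR 4.0.16 in R 4.3.3. P-values were two-sided and adjusted by Benjamini-Hochberg over all 14008 genes, with a threshold of 0.05. Fold cutoffs of the study were 2 (LPS), 1.3 (KO against WT) and 1.5 (KOL against WTL). SE is the log2 fold change divided by the square root of F. The tests were first tried on simulated counts. The methods call the replicates biological, and the labels name no animal or culture, so p-values measure the spread between these libraries.

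The members and the lists (A20 partners and targets, regulators of decay, deadenylation and decapping, AU-rich element binding proteins, target mRNAs, cell markers) were chosen with earlier results of these data known. All members were named. From each other list, the genes named were drawn from the 2 largest rises and falls per comparison. These were ranked among called genes whose normalized counts averaged at least 100 in that comparison. Not every gene so ranked was named. Cnot6l, Cnot10, Dcp1b, Ddx6, Pan2, Parn, Mapkapk2, Upf1, Hnrnpd and Tial1 were among those left out. The fall of Arid5a in KOL against WTL (-0.30) was left out too. Tnf, Ptgs2, Il6, Il12b and Cxcl2 in KOL against WTL were added after their values were seen. So were Il6 and Il23a in KO against WT and the dendritic cell and macrophage markers. Of the gene identifiers, 54587 matched GENCODE M21, and 105 symbols are carried by more than 1 identifier. Alternatives were DESeq2 1.42.0, edgeR on the 6 libraries compared, DESeq2 size factors, no filter, a minimum of 10 counts throughout, the replicate number as a block, limma 3.58.1 with pseudocounts of 1 and 0.1 on log2 TPM (genes reaching 1 TPM in 3 libraries), effective length offsets, no ribosomal RNA genes, the fold cutoffs and leaving out each replicate. TPM scaled to a common median and shares of normalized counts were added after seeing the data. Plots were drawn by matplotlib 3.10.9 under Python 3.11.15, from tables made by pandas 2.3.3 and numpy 2.4.6.

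Replicate numbers 1 to 3 recur in the 4 groups. Deviations from the group means of libraries with the same number correlated at -0.252 to 0.101, so the numbers were not taken as pairs.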

Additional observations from a re-analysis of the deposited data

Results flagged for a closer look

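The LPS response differed between WT and CTCF-deficient cells, by the test of the difference itself (interaction in edgeR's quasi-likelihood test), for 5 members. On the log2 scale the response in CTCF-deficient cells minus that in WT cells was -0.77 for Zc3h12a and -0.60 for Tnip1, both of which rose less in CTCF-deficient cells. It was 1.23 for Zfp36l1 and 0.48 for Zfp36l2, both of which fell less, and 0.56 for Zfp36, which rose more. The differences of Zc3h12a, Tnip1, Zfp36l1 and Zfp36l2 stayed past the threshold in all 10 alternatives and all 12 fits without 1 library, and that of Zfp36 in 5 of each.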

How the results depend on the processing

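The counts of members called kept within 1.5 times their value under the alternatives run, except under the fold cutoffs, which left 3 of 6 lower in KOL against WTL, and 3 of 6 higher and 1 of 2 lower in KOL against KO. Limma on log2(TPM + 1) and on log2(TPM + 0.1) turned Cyld in WTL against WT (-0.27 and -0.28) and Zc3h12a in KO against WT (-0.17 in both), and the latter turned the interaction of Zc3h12c (0.02). These scales moved the median of all genes in WTL against WT by -0.44 and -0.51, and in KOL against KO by -0.38 and -0.44. Scaling TPM to a common median turned Zc3h12a in KO against WT (-0.03), Cyld in KOL against KO (0.22) and the interaction of Tnip3 (-0.00). Effective length offsets gave -0.07, 0.15 and -0.02 for the same 3 values. None of the values so turned had been called, and only Cyld in WTL against WT was called after the turn (limma, adjusted p = 0.03 and 0.031). Leaving out 1 library turned Zc3h12a in KO against WT (-0.06 to 0.02 over the fits), Tnip3 in KOL against WTL (-0.16 to 0.03) and the interactions of Tnip3 (-0.07 to 0.12) and Zc3h12c (-0.28 to 0.17). The cause was not tested. The replicate numbers did not pair the libraries (mean correlation -0.029 for the same number, 0.015 for others), and with the number as a block Zfp36 in KOL against WTL (-0.32, edgeR, adjusted p = 0.059) and the interaction of Zfp36 (0.57, edgeR, adjusted p = 0.054) missed the threshold, while no other member's call changed.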
